A study of Mus musculus with 8 samples.

Results

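The day 14 libraries of this series were compared as a 2 by 2 layout, with 1 library for each combination of operation and genotype label. They are 4 of the 8 libraries, chosen by their labelled day, and they hold the only time-matched pairs of sham and BCAS. Bilateral common carotid artery stenosis (BCAS) narrows both common carotid arteries with microcoils and lowers blood flow to the brain for as long as the coils stay in place. The sham operation exposed the arteries under the same anesthesia without placing coils. The groups were a WT sham, a WT BCAS, a TRPA1-KO sham and a TRPA1-KO BCAS library, all from the C57BL/6 strain, with Trpa1 -/- as the labelled genotype of the knockout groups. Per the study's methods, the mice were males 8 to 12 weeks old, and the knockout is a germline line backcrossed to C57BL/6J, which removes the channel from every tissue and not from 1 cell type. Polyadenylated RNA of the corpus callosum, dissected from the whole brain and frozen, was sequenced, and the study's methods give a sample as an extract from 1 mouse.

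*Trpa1*, the targeted gene, went against the labels at day 14. It had 1 read after sham and 0 reads after BCAS in the libraries labelled WT, and 10 reads after sham and 7 reads after BCAS in those labelled TRPA1-KO. A count of 0 allows up to 3 reads, or 0.329 CPM, in that library. The libraries are therefore named by their labels throughout, and every direction between them is a direction between labels. The 4 libraries held 9315718 to 12952093 reads on genes, 3 reads corresponded to 0.235 to 0.329 CPM, and intervals cover counting error only. Every value below is in CPM, a read count scaled by the authors to a common library size, and every change is a difference of log2(CPM + 1), which for low genes is smaller than the true log2 ratio.

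The corpus callosum is the large bundle of axons that runs between the cerebral hemispheres. Oligodendrocytes wrap its axons in myelin, a process that demands energy and is known to be sensitive to low blood flow, and astrocytes and microglia respond to injury of the tract by changing shape and gene expression. The tract lies between the cortex above and the lateral ventricles, striatum and septum below, so RNA of neurons and of the ventricle wall can enter a dissection.

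The first question was which genes differed between BCAS and sham at day 14 over both labels, 2 libraries against 2. Of the 25239 gene symbols, 15047 averaged 1 CPM or more in the 4 libraries and were tested with limma, with the label as a term. At an unadjusted p under 0.05, the threshold of the study, 429 genes (2.85%) were higher after BCAS and 616 (4.09%) were lower. After Benjamini-Hochberg adjustment, 27 genes (0.179%) were higher and 98 (0.651%) were lower. The fit had 1 residual degree of freedom, and limma gave every gene the spread typical of its expression level, so an adjusted p compares a gene with other genes rather than with its own replicates. The 125 genes are 0.831% of those tested. For 92 of them (0.611% of those tested), both BCAS libraries lay on the same side of both sham libraries, and for 33 the groups overlapped. Without the label term, 1 gene, *Egr2*, had an adjusted p under 0.05 (limma adjusted p = 0.0188), and 593 genes had an unadjusted p under 0.05. A fit with 1 library left out could not hold the label term either, so it changed 2 choices at once and set groups of unequal label against each other, and its values below are to be read beside those without the label term alone. An exact permutation test of 2 libraries against 2 cannot give a two-sided p below 0.33.

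The changes of single genes were weakly related between the labels. The change under the WT label and the change under the TRPA1-KO label had a Pearson correlation of 0.0965 and a Spearman correlation of 0.0457 across the 15047 genes, which are not independent replicates, and 7678 genes (51%) moved in the same direction with both. With 1 library in each group, these are descriptions without a test. A change of at least 0.5 in the same direction with each label was seen for 32 genes that were higher after BCAS (0.213%) and 73 that were lower (0.485%).

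**Figure D1:**
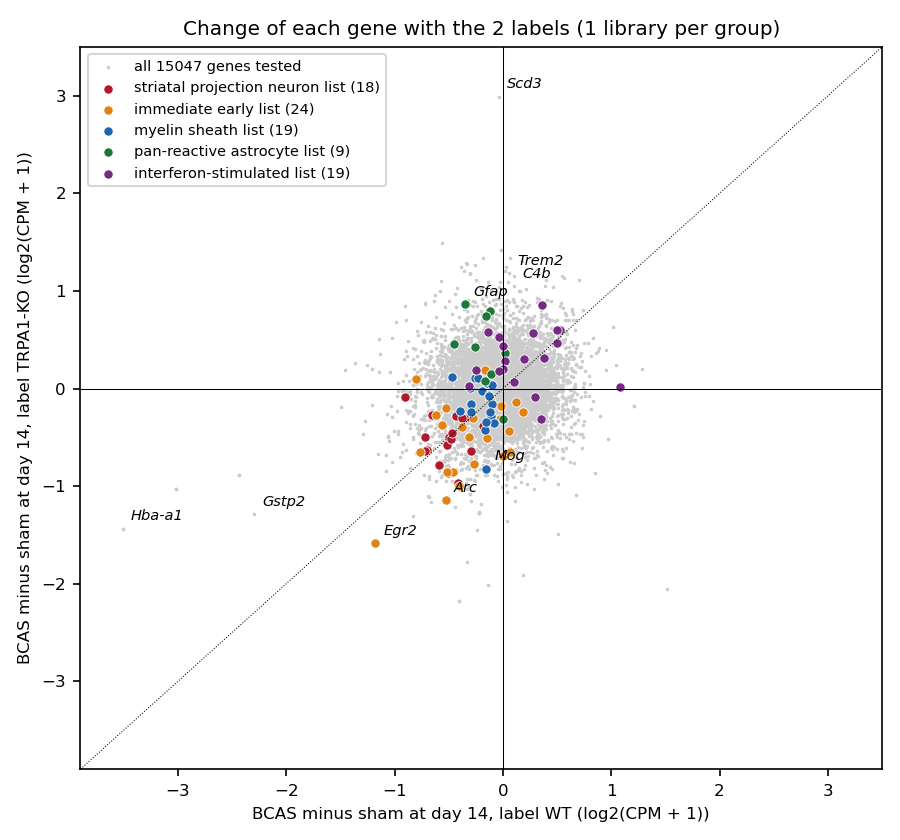
Change of each gene from sham to BCAS at day 14 under the WT label (horizontal axis) and under the TRPA1-KO label (vertical axis), both in log2(CPM + 1), 1 library per group. Grey points are the 15047 genes tested, coloured points are members of 5 gene lists, and the dotted line marks equal change. The striatal projection neuron genes lie at the lower left, with all 18 lower with both labels, and the pan-reactive astrocyte genes lie at the upper left, with 8 of 9 lower under the WT label and 8 of 9 higher under the TRPA1-KO label.

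Immediate early genes were among the most frequent of the lower genes. These genes are transcribed within minutes of neuronal firing or growth factor signalling and fall back within hours, and they encode transcription factors (the FOS, JUN, EGR and NR4A families), synaptic proteins such as ARC, and phosphatases that end MAP kinase signalling. Of 24 tested members of the list, 17 were lower at an unadjusted p under 0.05 and 0 were higher, against 4.09% of all genes lower, and 10 kept an adjusted p under 0.05, against 0.651%. The median change of the list was -0.36, with -0.29 for the label WT and -0.42 for the label TRPA1-KO, where the median over all genes was -0.0078 and -0.0034. BCAS and sham values did not overlap for 14 of the 24, all lower, against 16.8% of all genes tested. The count of 17 was 15 without the label term, 11 without the term and the sham library labelled TRPA1-KO, 9 with all 8 libraries in 1 fit and 8 with DESeq2, and the 10 with an adjusted p under 0.05 became 1 (*Egr2*) without the label term, and 2 and 4 without the term and the sham library labelled TRPA1-KO or WT.

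*Egr2*, a zinc finger transcription factor that also controls myelination in peripheral nerves, had the largest fold change of the list. It had 17.7 CPM after sham and 7.24 CPM after BCAS under the WT label, and 19.5 and 5.83 CPM under the TRPA1-KO label (log2 fold change -1.38, SE 0.17, limma adjusted p = 5.33e-13). Both BCAS libraries thus lay at less than 8 CPM and both sham libraries at more than 17 CPM. *Arc*, which encodes a protein of the postsynaptic cytoskeleton, had 295 CPM after sham and 204 CPM after BCAS under the WT label, and 356 and 161 CPM under the TRPA1-KO label (log2 fold change -0.83, SE 0.076, limma adjusted p = 8.31e-25). *Nr4a1*, an orphan nuclear receptor gene, had 122 CPM after sham and 91.9 CPM after BCAS under the WT label, and 149 and 73.7 CPM under the TRPA1-KO label (log2 fold change -0.70, SE 0.084, limma adjusted p = 6.08e-14). The BCAS and sham values of both genes did not overlap, and the decrease was larger under the TRPA1-KO label, by 0.62 for *Arc* and 0.60 for *Nr4a1*, a difference that 1 library per group cannot test. *Junb*, a subunit of the AP-1 transcription factor, had 62.2 CPM after sham and 43.1 CPM after BCAS under the WT label, and 78.2 and 42.7 CPM under the TRPA1-KO label (log2 fold change -0.69, SE 0.10, limma adjusted p = 1.61e-09). *Fos*, its partner in AP-1, had 25.7 CPM after sham and 18.4 CPM after BCAS under the WT label, and 27.2 and 14.6 CPM under the TRPA1-KO label (log2 fold change -0.66, SE 0.14, limma adjusted p = 0.000497). *Egr4* changed from 35.8 to 29.5 CPM under the WT label and from 38.4 to 22 CPM under the TRPA1-KO label (limma adjusted p = 0.0026).

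The phosphatase genes of the list were lower with both labels as well. *Dusp1*, whose product dephosphorylates p38 and JNK, had 41.3 CPM after sham and 27.7 CPM after BCAS under the WT label, and 38.6 and 29.7 CPM under the TRPA1-KO label (log2 fold change -0.47, SE 0.11, limma adjusted p = 0.00927). *Dusp6*, whose product acts on ERK, had 66.4 CPM after sham and 53.3 CPM after BCAS under the WT label, and 59.7 and 42 CPM under the TRPA1-KO label (log2 fold change -0.40, SE 0.10, limma adjusted p = 0.00798). *Btg2*, an antiproliferative gene, had 18 CPM after sham and 11.4 CPM after BCAS under the WT label, and 20.2 and 16.6 CPM under the TRPA1-KO label, with a limma adjusted p of 0.201. The values of these 3 genes did not overlap between BCAS and sham. Outside the list, *Sik1*, a kinase gene that cAMP signalling induces, had 14.8 CPM after sham and 10.2 CPM after BCAS under the WT label, and 20.5 and 12.5 CPM under the TRPA1-KO label (log2 fold change -0.58, SE 0.16, limma adjusted p = 0.0323). *Tiparp*, an ADP-ribosyltransferase gene named here after its values were seen, had 23.3 CPM after sham and 14.8 CPM after BCAS under the WT label, and 25 and 12.5 CPM under the TRPA1-KO label (log2 fold change -0.78, SE 0.14, limma adjusted p = 2.17e-05).

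For some members of the list the labels differed. *Egr1* had 371 CPM after sham and 372 CPM after BCAS under the WT label, and 398 and 247 CPM under the TRPA1-KO label, so its call (limma adjusted p = 0.0012) rests on the label TRPA1-KO. The same was true of *Egr3*, with 169 CPM after sham and 177 CPM after BCAS under the WT label, and 183 and 116 CPM under the TRPA1-KO label, and its change was 0.0065 without the label term and the BCAS library labelled TRPA1-KO. *Npas4*, a transcription factor gene that neuronal calcium entry induces, went the other way, with 32 CPM after sham and 17.9 CPM after BCAS under the WT label, and 24.7 and 26.5 CPM under the TRPA1-KO label (limma adjusted p = 0.286). *Homer1*, a scaffold gene of the synapse, had 165 CPM after sham and 179 CPM after BCAS under the WT label, and 156 and 141 CPM under the TRPA1-KO label, and its change of -0.013 did not pass the test.

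The promoters of 3 of these genes and of 1 interferon-stimulated gene are printed to show examples of the motifs that were counted over the lists. The windows are the 250 bases before the RefSeq start in GRCm38.p6, 5′ to 3′ on the gene's strand, and for *Egr2*, with 5 starts in the table, the window with the most matches was taken. Capitals mark, on either strand, the letters TGACG, the core of the cAMP response element that CREB family factors bind, and in *Egr2* also the CArG box, the element that serum response factor binds. In *Btg2*, the 8 capitals are the full palindrome TGACGTCA, in which the matches of both strands overlap. In *Ifit3*, they mark TTTC, any 2 bases and TTTC again, the core of the interferon-stimulated response element.
Egr2 chr10:67537619-67537868 plus strand: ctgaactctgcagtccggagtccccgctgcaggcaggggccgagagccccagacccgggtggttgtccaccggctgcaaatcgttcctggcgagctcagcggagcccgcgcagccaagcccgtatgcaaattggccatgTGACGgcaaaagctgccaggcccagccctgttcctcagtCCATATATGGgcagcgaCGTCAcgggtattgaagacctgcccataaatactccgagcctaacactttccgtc
Nr4a1 chr15:101266596-101266845 plus strand: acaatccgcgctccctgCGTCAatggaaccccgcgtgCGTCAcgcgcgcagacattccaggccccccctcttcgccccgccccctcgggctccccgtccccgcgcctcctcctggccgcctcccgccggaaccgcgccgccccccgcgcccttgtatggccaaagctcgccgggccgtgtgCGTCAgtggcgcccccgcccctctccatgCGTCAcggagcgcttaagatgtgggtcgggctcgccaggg
Btg2 chr1:134079156-134079405 minus strand: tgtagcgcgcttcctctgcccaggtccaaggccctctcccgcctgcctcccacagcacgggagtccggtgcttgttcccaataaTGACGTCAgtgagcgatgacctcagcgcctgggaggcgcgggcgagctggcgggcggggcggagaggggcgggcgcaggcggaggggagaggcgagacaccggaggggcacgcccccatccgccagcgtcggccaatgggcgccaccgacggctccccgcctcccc
Ifit3 chr19:34583279-34583528 plus strand: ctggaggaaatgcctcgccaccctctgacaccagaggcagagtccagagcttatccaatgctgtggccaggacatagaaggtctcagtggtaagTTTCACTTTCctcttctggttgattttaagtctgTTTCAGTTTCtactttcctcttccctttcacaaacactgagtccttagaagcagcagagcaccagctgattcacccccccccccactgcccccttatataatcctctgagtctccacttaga

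A gene with several starts was counted if any of its windows held the motif. TGACG stood in the window of 14 of the 20 immediate early genes with a promoter in the table (70%) and in 12 of the 13 of them that were lower at a p under 0.05 (92.3%). It stood in 29.4% of the 11737 tested genes with a promoter and in 19.8% of all 27025 genes with one. The palindrome TGACGTCA was in 2 of the 20 (10%), against 2.94% of tested genes, and the CArG box in 1 of 20 (5%), against 1.41%. The core of the interferon-stimulated response element stood in 7 of 15 interferon-stimulated genes (46.7%), against 2.99% of tested genes. A match is a stretch of letters in this window and does not show that a factor binds there.

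**Figure D2:**
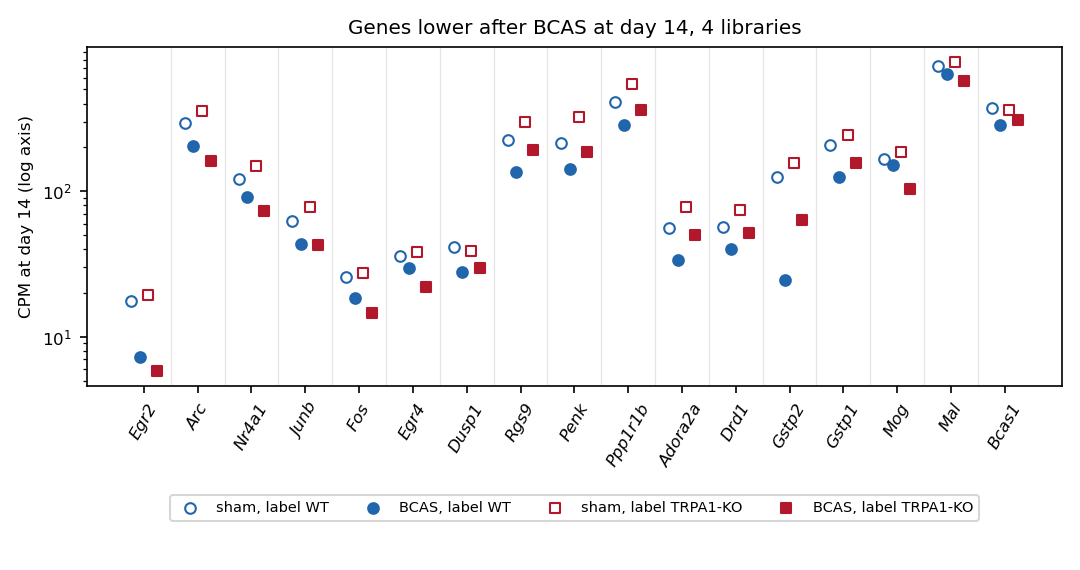
CPM of 17 genes that were lower after BCAS in the 4 day 14 libraries, on a log axis. Open symbols are sham and filled symbols BCAS, circles the label WT and squares the label TRPA1-KO, with 1 library per symbol and no error bars. For each of the 17 genes the filled symbol lies under the open symbol of the same shape, and *Egr2* and *Gstp2* show the widest gaps.

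Genes of striatal projection neurons formed the other large group of lower genes. These GABAergic neurons of the striatum carry dopamine and adenosine receptors with the signalling proteins behind them, and they are not cells of the corpus callosum. All 18 members of the list were tested, and 17 were lower at a p under 0.05 (4.09% of all genes), 13 of them with an adjusted p under 0.05 (0.651% of all genes), and none (0) was higher. All 18 were lower with both labels, with a median change of -0.49 for the label WT and -0.49 for the label TRPA1-KO, and 14 were lower without overlap between BCAS and sham, against 16.8% of all genes. In a bulk sample, fewer cells of a type and less RNA per cell cannot be told apart.

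*Penk*, which encodes the opioid precursor proenkephalin, had 214 CPM after sham and 141 CPM after BCAS under the WT label, and 323 and 187 CPM under the TRPA1-KO label (log2 fold change -0.69, SE 0.077, limma adjusted p = 2.81e-16). *Rgs9*, a regulator of G protein signalling in these neurons, had 224 CPM after sham and 136 CPM after BCAS under the WT label, and 299 and 191 CPM under the TRPA1-KO label (log2 fold change -0.68, SE 0.077, limma adjusted p = 8.57e-16). Both genes were lower in the 2 BCAS libraries than in either sham library. *Ppp1r1b*, which encodes the dopamine-regulated phosphatase inhibitor DARPP-32, had 412 CPM after sham and 287 CPM after BCAS under the WT label, and 542 and 362 CPM under the TRPA1-KO label (log2 fold change -0.55, SE 0.074, limma adjusted p = 5.34e-11). The receptor genes followed the same order. *Adora2a*, an adenosine receptor gene, had 55.7 CPM after sham and 33.8 CPM after BCAS under the WT label, and 78.3 and 50.4 CPM under the TRPA1-KO label (log2 fold change -0.67, SE 0.10, limma adjusted p = 1.44e-08). *Drd1*, the dopamine D1 receptor gene, had 57.1 CPM after sham and 40.3 CPM after BCAS under the WT label, and 73.7 and 52 CPM under the TRPA1-KO label (log2 fold change -0.49, SE 0.10, limma adjusted p = 0.000192). *Drd2* had 35.7 CPM after sham and 29 CPM after BCAS under the WT label, and 64.2 and 40.9 CPM under the TRPA1-KO label, and its groups overlapped because the BCAS library labelled TRPA1-KO lay above the sham library labelled WT. *Pde1b* and *Scn4b*, 2 further genes abundant in striatum that were named after their values were seen, changed by -0.46 and -0.41 (limma adjusted p = 2.51e-07 and 9.2e-06).

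The summed level of the 18 genes was 2727 CPM after sham and 1952 CPM after BCAS under the WT label, and 3561 and 2541 CPM under the TRPA1-KO label. The sham library labelled TRPA1-KO was thus the highest, and its BCAS library lay near the sham library labelled WT. After BCAS on days 7 and 10, the sum was 1549 and 2086 CPM under the WT label and 1662 and 2563 CPM under the TRPA1-KO label, under the sham value of the label on each day. The count of 17 lower genes was 15 without the label term, and 10 and 9 without the term and the BCAS library labelled WT or the sham library labelled TRPA1-KO, and none (0) of the 18 kept an adjusted p under 0.05 in any fit without that term that used all 4 libraries. The immediate early list also had a lower sum after BCAS with both labels at day 14, but with a smaller decrease under the WT label. Its summed level was 1861 CPM after sham and 1666 CPM after BCAS under the WT label, and 2004 and 1322 CPM under the TRPA1-KO label. The part of striatal neurons in the immediate early result was not tested.

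Markers of other neurons were divided in direction. Of 19 genes of cortical excitatory neurons, 4 were higher at a p under 0.05 and 3 were lower, where 2.85% and 4.09% of all genes were. The median change of the list was 0.045. Without the label term, 4 were higher and 1 was lower. With the sham library labelled TRPA1-KO left out as well, 0 were higher and 1 was lower, and with the BCAS library labelled WT left out instead, 1 was higher and 1 was lower. *Lmo4*, *Cux2*, *Fezf2* and *Rasgrf2*, transcription factor and signalling genes of cortical layers, were the 4 higher ones, with changes of 0.25, 0.31, 0.32 and 0.29. The lower ones were *Bcl11b* (-0.23) and *Foxp2* (-0.22), which striatal neurons express as well, and *Nrgn*. *Nrgn*, which encodes the calmodulin-binding protein neurogranin, had 1873 CPM after sham and 1816 CPM after BCAS under the WT label, and 1743 and 986 CPM under the TRPA1-KO label (limma adjusted p = 7.9e-06), so it was low in 1 library only. Of 11 genes of inhibitory interneurons, *Vip* alone passed a p of 0.05, with 19.6 CPM after sham and 20.6 CPM after BCAS under the WT label, and 15.9 and 27.5 CPM under the TRPA1-KO label (limma adjusted p = 0.184).

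*Gstp2* and its neighbour *Gstp1* were also among the 10 lower genes that the naming rule ranked first. They encode glutathione S-transferases of the pi class, which conjugate glutathione to electrophiles, and lie side by side on chromosome 19 on the minus strand (GRCm38, 4040285 to 4046023 and 4035407 to 4037985). *Gstp2* had 125 CPM after sham and 24.6 CPM after BCAS under the WT label, and 157 and 63.7 CPM under the TRPA1-KO label (log2 fold change -1.79, SE 0.091, limma adjusted p = 1.46e-81). *Gstp1* had 209 CPM after sham and 126 CPM after BCAS under the WT label, and 245 and 156 CPM under the TRPA1-KO label (log2 fold change -0.69, SE 0.078, limma adjusted p = 1.19e-15). The BCAS values lay under both sham values for each gene. The copies are near-identical in sequence, so how reads were divided between them is uncertain. In the BCAS libraries of days 7 and 10, *Gstp2* had 122 and 102 CPM under the WT label and 126 and 135 CPM under the TRPA1-KO label, so the low values were those of day 14. Of 13 genes of the Nrf2 antioxidant list, 1 (*Gstm1*) was lower at a p under 0.05 and 0 were higher, against 4.09% and 2.85% of all genes. *Gstm1* had 125 CPM after sham and 125 CPM after BCAS under the WT label, and 153 and 106 CPM under the TRPA1-KO label (limma adjusted p = 0.102).

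Myelin genes were lower after BCAS by small amounts. Of 19 tested genes of the myelin sheath, 11 were lower at a p under 0.05 (4.09% of all genes) and 0 were higher, and 3 kept an adjusted p under 0.05 (0.651% of all genes). All 19 were lower under the WT label and 13 of 19 under the TRPA1-KO label, and the median change was -0.16 under the WT label and -0.16 under the TRPA1-KO label. The values of 9 were lower without overlap, against 16.8% of all genes. *Mog*, a glycoprotein of the outermost myelin surface, had 168 CPM after sham and 150.2 CPM after BCAS under the WT label, and 185 and 104 CPM under the TRPA1-KO label (log2 fold change -0.49, SE 0.080, limma adjusted p = 4.79e-07). *Mal*, a proteolipid of compact myelin, had 721 CPM after sham and 642 CPM after BCAS under the WT label, and 767 and 571 CPM under the TRPA1-KO label (log2 fold change -0.30, SE 0.074, limma adjusted p = 0.0106). *Bcas1*, a marker of oligodendrocytes that are forming myelin, had 372 CPM after sham and 283 CPM after BCAS under the WT label, and 363 and 308 CPM under the TRPA1-KO label (log2 fold change -0.31, SE 0.074, limma adjusted p = 0.00518). For all 3 genes both BCAS libraries lay under both sham libraries, and the decrease of *Mog* under the TRPA1-KO label was larger than that under the WT label by 0.66.

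Other abundant myelin genes passed only the unadjusted threshold or did not pass it. *Mbp*, the myelin basic protein gene whose product the study stained, had 6495 CPM after sham and 6012 CPM after BCAS under the WT label, and 7246 and 5951 CPM under the TRPA1-KO label (log2 fold change -0.20, limma adjusted p = 0.595). *Mobp*, which encodes another basic protein of myelin, had 2346 CPM after sham and 2212 CPM after BCAS under the WT label, and 2711 and 2119.8 CPM under the TRPA1-KO label (limma adjusted p = 0.28). *Cnp* had 735 CPM after sham and 672 CPM after BCAS under the WT label, and 785 and 752 CPM under the TRPA1-KO label, with a change of -0.10 that did not pass the test. The summed level of the list was 17299.7 CPM after sham and 15338 CPM after BCAS under the WT label, and 18921 and 16072 CPM under the TRPA1-KO label. The count of lower genes was 5 without the label term, 5 with all 8 libraries in 1 fit, 6 with DESeq2, and 6, 4 and 2 without the term and the sham library labelled WT, the BCAS library labelled WT and the sham library labelled TRPA1-KO, and the last held the highest sum of the 8.

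Few oligodendrocyte lineage genes outside myelin passed the test. *Olig2* had 46.5 CPM after sham and 46 CPM after BCAS under the WT label, and 45.1 and 45.9 CPM under the TRPA1-KO label and *Pdgfra*, the receptor gene that marks precursors, had 68.8 CPM after sham and 60.3 CPM after BCAS under the WT label, and 64.9 and 62.6 CPM under the TRPA1-KO label, and neither passed the test. Of 16 genes of the precursor list, *Gpr17* (-0.20) and *Cacng4* (-0.27) were lower and *Bmp4* (0.69) was higher at a p under 0.05. Of all genes, 4.09% were lower and 2.85% higher at that threshold, and 0 of the 16 had an adjusted p under 0.05. The values of 7 of the 16, *Pdgfra* among them, were lower without overlap and those of 1 were higher, against 16.8% and 14.5% of all genes. Under the WT label 12 of 16 were lower and under the TRPA1-KO label 11 of 16, with medians of -0.12 and -0.18. *Kcnab1*, which encodes a subunit of the potassium channels beside the nodes of Ranvier, had 160.2 CPM after sham and 125 CPM after BCAS under the WT label, and 186 and 150.1 CPM under the TRPA1-KO label (log2 fold change -0.33, SE 0.079, limma adjusted p = 0.00661), and it was the 1 gene of the 20 in the node and paranode list with an adjusted p under 0.05.

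Fewer genes were higher after BCAS, and some belong to the interferon response, to microglia or to complement. Of the 27 higher genes with an adjusted p under 0.05, the interferon-stimulated, disease-associated microglia and complement lists held 1 each. Ranked by limma p among genes changed by at least 0.5 with non-overlapping values, the 10 leading genes were *Tshz2*, *Ndst3*, *Syt17*, *Eps8l1*, *Ifit3*, *Igsf3*, *Pcsk5*, *Trem2*, *Tnfaip8l3* and *C4a*. *Tshz2*, a zinc finger gene of cortical neurons, had 35.1 CPM after sham and 52.7 CPM after BCAS under the WT label, and 29 and 41.5 CPM under the TRPA1-KO label (log2 fold change 0.54, SE 0.11, limma adjusted p = 0.000331). *Igsf3*, a gene of the immunoglobulin superfamily, had 11.1 CPM after sham and 17.1 CPM after BCAS under the WT label, and 10.9 and 17 CPM under the TRPA1-KO label (log2 fold change 0.59, SE 0.16, limma adjusted p = 0.0343). Both changed by nearly the same amount with each label. *Syt17*, a synaptotagmin gene, had 16.4 CPM after sham and 20.6 CPM after BCAS under the WT label, and 12.9 and 25.5 CPM under the TRPA1-KO label (log2 fold change 0.62, SE 0.14, limma adjusted p = 0.00388). *Pcsk5*, a proprotein convertase gene, had 12.8 CPM after sham and 17.4 CPM after BCAS under the WT label, and 11.2 and 19 CPM under the TRPA1-KO label (log2 fold change 0.57, SE 0.16, limma adjusted p = 0.0347). The other changes of the 10 lay between 0.55 and 0.85.

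Interferon-stimulated genes encode antiviral effectors and the factors that induce them. Of 19 tested, 5 were higher at a p under 0.05, against 2.85% of all genes, and 0 were lower. Their median change was 0.19 under the WT label and 0.30 under the TRPA1-KO label, and 8 of the 19 were higher without overlap, against 14.5% of all genes tested. *Ifit3*, whose product binds viral RNA complexes, had 10.6 CPM after sham and 13.9 CPM after BCAS under the WT label, and 11.6 and 21.7 CPM under the TRPA1-KO label (log2 fold change 0.61, SE 0.16, limma adjusted p = 0.0224). *Irf9*, a subunit of the factor that drives these genes, had 11.3 CPM after sham and 13.9 CPM after BCAS under the WT label, and 9.88 and 15.2 CPM under the TRPA1-KO label (limma adjusted p = 0.396). *Ifit1*, *Usp18* and *Oasl2* were the other 3, at 0.959 to 5.27 CPM in the 4 libraries, with changes of 0.56, 0.55 and 0.55. The change of *Oasl2* was 1.08 under the WT label and 0.013 under the TRPA1-KO label. With all 8 libraries in 1 fit, 0 of the 19 genes passed a p of 0.05 in limma, and DESeq2 on the 4 libraries passed 1. The count of 5 was 3 without the label term, and 3 and 2 without the term and the BCAS or the sham library labelled TRPA1-KO.

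Some microglia genes were higher after BCAS. Of 16 homeostatic microglia genes, 4 were higher at a p under 0.05 (2.85% of all genes) and 0 had an adjusted p under 0.05, and 13 of 16 lay above sham under the TRPA1-KO label against 8 of 16 under the WT label, where 49.4% and 48.2% of all genes did. The count of 4 was 1 without the label term and 0 with DESeq2. With the term and 1 library left out, it was 10 (BCAS labelled WT), 1 (sham labelled WT) and 0 (BCAS labelled TRPA1-KO). The 4 were *Csf1r*, the receptor gene on which microglia depend for survival, with 93.3 CPM after sham and 99.1 CPM after BCAS under the WT label, and 93.5 and 117 CPM under the TRPA1-KO label, *Itgam*, *Selplg* and *Cx3cr1*, with changes of 0.21, 0.37, 0.30 and 0.22. *Trem2*, a lipid receptor gene that microglia need to respond to myelin debris, had 10.7 CPM after sham and 11.2 CPM after BCAS under the WT label, and 7.58 and 18.4 CPM under the TRPA1-KO label (log2 fold change 0.62, SE 0.17, limma adjusted p = 0.0369). The higher value was in 1 library, while the value under the WT label was nearly that of its sham. *Mpeg1*, the macrophage perforin gene named after its values were seen, had 26.3 CPM after sham and 31.1 CPM after BCAS under the WT label, and 29.7 and 46.1 CPM under the TRPA1-KO label (log2 fold change 0.42, SE 0.12, limma adjusted p = 0.0369). *Aif1*, whose product Iba1 marks microglia, had 3.83 CPM after sham and 3.62 CPM after BCAS under the WT label, and 3.45 and 4.99 CPM under the TRPA1-KO label and did not pass the test (limma adjusted p = 0.992).

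Of 16 tested genes of the disease-associated microglia list, 2 were higher at a p under 0.05 and 0 were lower, where 2.85% and 4.09% of all genes were. *Trem2* alone had an adjusted p under 0.05. The count of 2 stayed 2 without the label term and was 0 with DESeq2 or with all 8 libraries in 1 fit. The list medians were -0.032 under the WT label, where 10 of 16 were lower, and 0.12 under the TRPA1-KO label, where 10 of 16 were higher. Of 4 members with too few reads, 3 were highest in the BCAS library labelled TRPA1-KO and *Lgals3* was not. *Clec7a* had 6 reads after sham and 0 reads after BCAS under the WT label, and 0 and 19 reads under the TRPA1-KO label. *Itgax* had 4 and 3 reads under the WT label and 2 and 20 under the TRPA1-KO label, and *Cst7* had 0 and 0 reads against 3 and 12. *Lgals3* had 6 and 1 reads under the WT label and 3 and 3 under the TRPA1-KO label. These 4 genes lay under the mean of 1 CPM, so they were not tested.

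Complement genes also differed by label. *C4b*, the complement component gene that astrocytes express when reactive, had 31.8 CPM after sham and 34.2 CPM after BCAS under the WT label, and 47.4 and 99.3 CPM under the TRPA1-KO label (log2 fold change 0.58, SE 0.10, limma adjusted p = 8.58e-06). The value of the BCAS library labelled WT lay below that of the sham library labelled TRPA1-KO, while the change was above 0 within each label (0.10 and 1.05). Without the label term and the BCAS library labelled TRPA1-KO it was -0.18, a value that sets 1 BCAS library labelled WT against sham libraries of both labels. *C4a*, a near copy of *C4b* on chromosome 17 with which it may share reads, had 5.24 CPM after sham and 8.01 CPM after BCAS under the WT label, and 6.71 and 12.9 CPM under the TRPA1-KO label (log2 fold change 0.69, SE 0.19, limma adjusted p = 0.0399). *C1qb* had 30.8 CPM after sham and 29.3 CPM after BCAS under the WT label, and 29.4 and 45.5 CPM under the TRPA1-KO label (limma adjusted p = 0.542), and *C1qa* had 31.6 CPM after sham and 26.7 CPM after BCAS under the WT label, and 30.6 and 41.9 CPM under the TRPA1-KO label and did not pass the test. At a p under 0.05, 2 of the 14 tested genes of the complement list were higher (*C4b* and *C1qb*) and 1 was lower. Of all genes, 2.85% were higher and 4.09% lower at that threshold. The lower one was *Cd55*, an inhibitor of complement, with a change of -0.54 (limma adjusted p = 0.55). By direction alone, 10 of the 14 were lower under the WT label and 10 of the 14 were higher under the TRPA1-KO label.

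**Figure D3:**
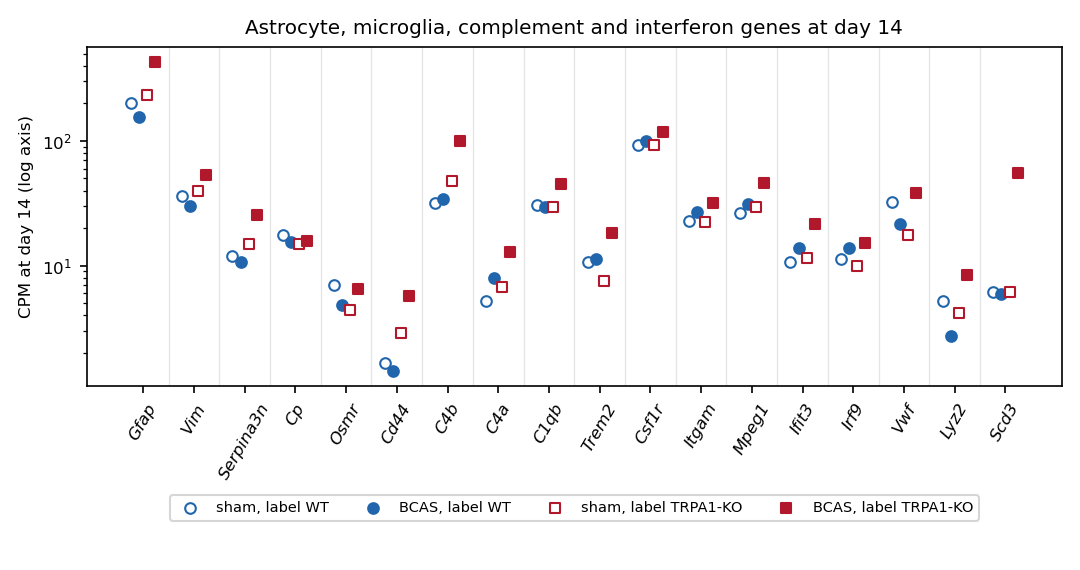
CPM of 18 astrocyte, microglia, complement, interferon and other genes in the 4 day 14 libraries, on a log axis. Open symbols are sham and filled symbols BCAS, circles the label WT and squares the label TRPA1-KO, with 1 library per symbol. The filled square is the highest symbol for *Gfap* (427 CPM), *C4b* (99.3 CPM) and *Scd3* (55.8 CPM), while the filled circle of each lies near the open symbols.

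Reactive astrocyte genes had changes of opposite sign with the labels, and few passed the test over both. *Gfap*, the intermediate filament gene whose rise defines reactive astrocytes, had 200.4 CPM after sham and 157 CPM after BCAS under the WT label, and 234 and 427 CPM under the TRPA1-KO label. It fell short of the adjusted threshold (log2 fold change 0.26, SE 0.076, limma adjusted p = 0.0814), and without the label term and the BCAS library labelled TRPA1-KO its change was -0.46. *Serpina3n*, a secreted protease inhibitor gene, had 12 CPM after sham and 10.6 CPM after BCAS under the WT label, and 14.8 and 25.4 CPM under the TRPA1-KO label, and *Vim*, another intermediate filament gene, had 36.1 CPM after sham and 30 CPM after BCAS under the WT label, and 39.7 and 53.6 CPM under the TRPA1-KO label. In the 9 tested pan-reactive genes, 8 were lower under the WT label and 8 were higher under the TRPA1-KO label, with medians of -0.16 and 0.42.

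The A1 and A2 lists, proposed as neurotoxic and protective states of astrocytes, followed the same split. The A1 median was -0.30 under the WT label and 0.26 under the TRPA1-KO label, with 11 of 12 lower and 9 of 12 higher. The A2 median was -0.19 and 0.17, with 6 of 9 lower and 6 of 9 higher. At a p under 0.05, *Gfap* was the 1 pan-reactive gene called, *B3gnt5* (-0.60) the 1 A2 gene, and 0 of the A1 genes passed. Of all genes, 2.85% were higher and 4.09% lower at that threshold. Homeostatic astrocyte genes, which encode transporters and channels, had medians of 0.048 and -0.0093, with 0 of 16 at a p under 0.05. *Slc1a2*, the main glutamate transporter gene of astrocytes, had 3045 CPM after sham and 2984 CPM after BCAS under the WT label, and 2769.8 and 3512 CPM under the TRPA1-KO label.

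**Figure D4:**
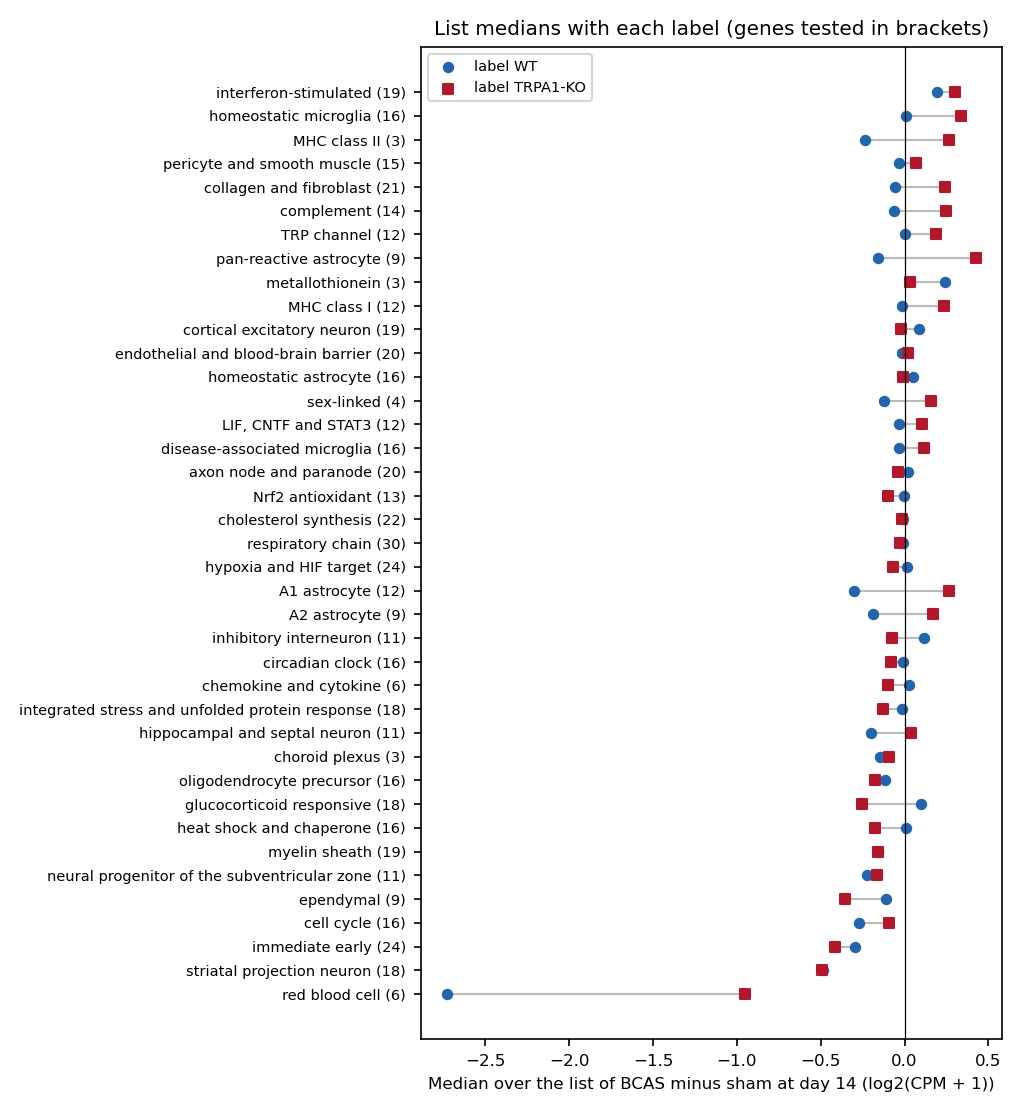
Median change from sham to BCAS at day 14 over each of 39 gene lists with at least 3 tested genes, in log2(CPM + 1), with circles for the label WT and squares for the label TRPA1-KO (1 library per group, no error bars). The symbols coincide for the striatal and myelin lists and lie on opposite sides of 0 for the pan-reactive, A1 and A2 astrocyte lists.

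The cytokine gene that the study followed was near the limit of detection at day 14, while the receptor genes of its pathway were not. *Lifr*, *Il6st* and *Stat3* had 43.4 to 91.3 CPM in the 4 libraries. *Lif*, a cytokine gene of the IL-6 family, had 0.548 CPM after sham and 0.329 CPM after BCAS under the WT label, and 0.479 and 0.104 CPM under the TRPA1-KO label, from 1 to 7 reads in the 4 libraries, and it was not tested. *Il11*, another cytokine gene of the family, named after its values were seen, had 12 reads after sham and 0 reads after BCAS under the WT label, and 21 and 2 reads under the TRPA1-KO label, and it was not tested either. *Cntf*, of the same family, had 0.861 CPM after sham and 1.65 CPM after BCAS under the WT label, and 0.479 and 1.04 CPM under the TRPA1-KO label, with a change of 0.49 that did not pass the test (limma adjusted p = 0.857). The receptor genes *Lifr* and *Il6st* changed by -0.0070 and 0.0057 and *Stat3*, the transcription factor they signal through, by 0.10. Of 12 tested genes of the pathway, 0 passed a p of 0.05, where 2.85% of all genes were higher and 4.09% lower. The reactive astrocyte genes *Lcn2*, *Tgm1* and *Cxcl10* had 0 to 6 reads each in the 4 libraries.

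The second question was how the change after BCAS differed between the labels. A change of at least 1 on the log2 scale was seen for 39 genes under the WT label (7 higher, 0.0465% of genes tested, and 32 lower, 0.213%, or 0.259% in all) and for 77 under the TRPA1-KO label (38 higher, 0.253%, and 39 lower, 0.259%, or 0.512% in all). For reference, the 2 sham libraries differed by as much for 39 genes (0.259%) and the 2 BCAS libraries for 84 (0.558%), of which 60 (0.399%) were higher and 24 (0.16%) lower under the TRPA1-KO label. The change differed between labels by at least 1 for 216 genes (1.44%), with 135 (0.897%) more positive and 81 (0.538%) more negative under the TRPA1-KO label. None of these counts has a test, and they depend on the lowest genes, with 58 in place of 216 at a mean of at least 5 CPM.

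Opposite changes of at least 0.5 in the labels were seen for 51 genes (0.339%). At a mean of at least 5 CPM, 7 named genes were higher under the TRPA1-KO label and lower under the WT label after BCAS. *Vwf*, which encodes von Willebrand factor of endothelial cells (chromosome 6, 125546774 to 125686679 in GRCm38), had 32.5 CPM after sham and 21.5 CPM after BCAS under the WT label, and 17.5 and 38.5 CPM under the TRPA1-KO label. The ratio of BCAS to sham was 0.661 (95% counting interval 0.555 to 0.785) under the WT label and 2.21 (1.84 to 2.65) under the TRPA1-KO label. The sham libraries also differed, so the BCAS library labelled TRPA1-KO and the sham library labelled WT were the high ones. *Lyz2*, the lysozyme gene of macrophages and microglia, had 5.16 CPM after sham and 2.74 CPM after BCAS under the WT label, and 4.12 and 8.43 CPM under the TRPA1-KO label. *Ctsc*, a lysosomal protease gene of activated microglia, had 9.31 CPM after sham and 5.93 CPM after BCAS under the WT label, and 5.18 and 8.43 CPM under the TRPA1-KO label. *Lama4*, a laminin gene of vessel basement membranes, had 10.2 CPM after sham and 6.25 CPM after BCAS under the WT label, and 7.19 and 10.6 CPM under the TRPA1-KO label. *Sycp3*, *Zfp518a* and *Ccdc90b* were the others, with differences between labels of 1.16, 1.16 and 1.11. In the opposite direction, *Zfp469* had 4.15 CPM after sham and 6.58 CPM after BCAS under the WT label, and 7.1 and 3.95 CPM under the TRPA1-KO label. GENCODE M21 lists *Zfp469* as a long noncoding RNA gene that overlaps *Gm20388* on the same strand, so reads may be shared.

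*Scd3*, a stearoyl-CoA desaturase gene on chromosome 19 (44203269 to 44244016 in GRCm38) that was named after its values were seen, had 1 library far above the others. It had 6.1 CPM after sham and 5.93 CPM after BCAS under the WT label, and 6.14 and 55.8 CPM under the TRPA1-KO label, a ratio of 9.09 (95% counting interval 7.0 to 12) under the TRPA1-KO label and of 0.971 (0.673 to 1.39) under the WT label. On days 7 and 10 after BCAS it had 5.34 and 3.15 CPM under the WT label and 7.35 and 5.34 CPM under the TRPA1-KO label, so 1 library of the 8 stood apart.

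Vessel genes changed unevenly, and the blood content of the libraries differed. Of 15 tested pericyte and smooth muscle genes, 2 were lower and 0 higher at a p under 0.05, against 4.09% and 2.85% of all genes. The median change of that list was 0.098. Its values were higher without overlap for 3 genes and lower for 3, against 14.5% and 16.8% of all genes. The 2 lower genes were *Myh11* and *Acta2*. *Myh11*, the smooth muscle myosin gene, had 9.94 CPM after sham and 5.82 CPM after BCAS under the WT label, and 9.01 and 3.64 CPM under the TRPA1-KO label (log2 fold change -0.90, SE 0.20, limma adjusted p = 0.00219), and *Acta2*, smooth muscle actin, had 5.01 CPM after sham and 5.16 CPM after BCAS under the WT label, and 7.96 and 2.5 CPM under the TRPA1-KO label (limma adjusted p = 0.165). Of 20 endothelial and blood-brain barrier genes, *Slc7a5* and *Vwf* were higher at a p under 0.05 (changes of 0.21 and 0.26), against 2.85% of all genes, and 0 had an adjusted p under 0.05. *Hba-a1*, an alpha globin gene with values identical to those of *Hba-a2*, had 22.9 CPM after sham and 1.1 CPM after BCAS under the WT label, and 75.2 and 27.2 CPM under the TRPA1-KO label, and the beta globin gene *Hbb-bs* had 9.78 CPM after sham and 0.329 CPM after BCAS under the WT label, and 30.9 and 14.7 CPM under the TRPA1-KO label. All 4 globin genes of the red blood cell list had an adjusted p under 0.05 in limma, yet the BCAS library labelled TRPA1-KO lay above the sham library labelled WT for each, and the part of residual blood in the vessel genes was not tested. Hypoxia and HIF target genes gave 3 lower and 0 higher genes of 24 at a p under 0.05, against 4.09% of all genes lower and 2.85% higher. The 3 were *Ndrg1* (-0.26), *P4ha1* (-0.31) and *Ddit4* (-0.23), and 0 had an adjusted p under 0.05. The count of 3 was 2 without the label term and 1 with DESeq2.

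The third question was where day 14 stood after BCAS against days 7 and 10, over the 6 BCAS libraries with the label as a term. The 2 BCAS libraries of day 14 enter this comparison and the one against sham, so the results are not independent. Of 15190 genes tested, 182 (1.2%) were higher on day 14 and 243 (1.6%) were lower at a p under 0.05, and 0 had an adjusted p under 0.05 in limma or in edgeR, while DESeq2 gave 5. Of 25 immediate early genes, 11 were lower at a p under 0.05 and 0 were higher. *Junb* had 57.6 CPM on day 7, 64.7 CPM on day 10 and 43.1 CPM on day 14 under the WT label, and 106, 113 and 42.7 CPM under the TRPA1-KO label (limma adjusted p = 0.943). *Fos* had 27.7, 26.6 and 18.4 CPM on the same days under the WT label and 67.8, 56.6 and 14.6 CPM under the TRPA1-KO label (limma adjusted p = 1.0).

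The decrease of the immediate early genes was uneven between the labels. Over the 24 members with a value at day 14, the median of day 14 minus the mean of days 7 and 10 was -0.12 under the WT label, with 14 lower, and -0.97 under the TRPA1-KO label, with 23 lower. The summed level of the list was 2749.7, 2615 and 1322 CPM on days 7, 10 and 14 under the TRPA1-KO label and 1497, 1725 and 1666 CPM under the WT label. The libraries labelled TRPA1-KO were thus above their day 14 sham on days 7 and 10 and under it on day 14, while those labelled WT were under their sham on each day. The other leading lower genes were *Gstp2*, *Sik1*, *Ier2* and *Gstp1*, with changes of -1.58, -0.89, -0.87 and -0.52. The leading higher genes were *Zbtb16*, *Sdk2*, *Dscaml1*, *Ptpdc1* and *Klhl29*, with changes of 0.92 to 0.37. *Zbtb16*, a transcription factor gene that glucocorticoids induce, had 78.3, 48.8 and 124 CPM on the 3 days under the WT label and 60.8, 61.9 and 112 CPM under the TRPA1-KO label.

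The pan-reactive astrocyte genes moved apart over the same days. The summed level of the 9 members tested at day 14 was 2058, 1275 and 235 CPM on days 7, 10 and 14 under the WT label, against 251, 247 and 552 CPM under the TRPA1-KO label. Over both labels, 0 of the 12 tested genes of the list passed a p of 0.05 between day 14 and the earlier days.

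**Figure D5:**
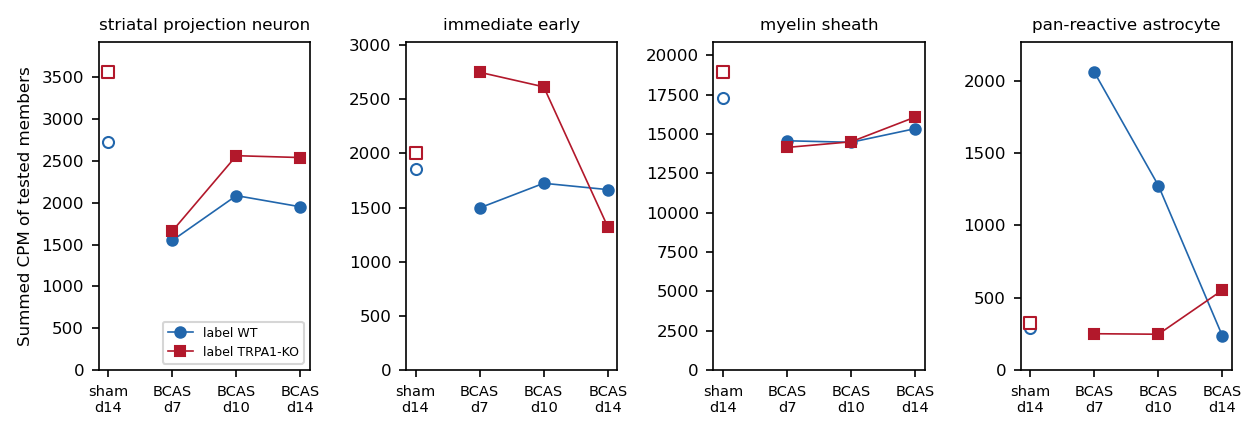
Summed CPM of the tested members of 4 gene lists in the 8 libraries, with 1 point per library. Open symbols are sham on day 14, filled symbols joined by lines are BCAS on days 7, 10 and 14, circles the label WT and squares the label TRPA1-KO, and every vertical axis starts at 0. The striatal and myelin sums lie under the sham value of their label on each day after BCAS, while the pan-reactive sum of the label TRPA1-KO is highest on day 14 (552 CPM) and that of the label WT is lowest on day 14 (235 CPM).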

How the data were processed

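The corpus callosum RNA of the 4 day 14 libraries was analysed, with the 4 BCAS libraries of days 7 and 10 used for 1 comparison. Polyadenylated RNA was selected, and the clean reads were mapped to GRCm38 by HISAT (version 2.1.0) and counted by subread (version 2.0.1), and edgeR (version 3.34.1) was used to normalize, per the study's methods. The annotation and the strand setting are not given in the sources used here. The deposited values are a signal made by the authors, read counts per gene over an effective library size, given as CPM without logarithm, with sums of 992214 to 1022161 in the 4 libraries. All values (100%) were whole multiples of 1 read within 0.01, so the reads were recovered. The comparisons had been planned for log2 values, and the planned test was kept.

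Genes that averaged 1 CPM or more were tested on log2(CPM + 1), with a pseudocount of 1, by limma (version 3.58.1, R 4.3.3; eBayes with trend, two-sided, Benjamini-Hochberg over all genes tested), with the label as a term. With 1 residual degree of freedom, limma's prior degrees of freedom were infinite. The script was tested on simulated data. Within a label and between labels, differences are without a test. Replicates of a combination of operation, label and day were not among the libraries. At day 14 the residual was the difference of the BCAS change between labels, and limma used its typical size at each expression level. The p-values of that fit set the BCAS change against this typical size and not against replicates. The fit of the 6 BCAS libraries had 3 residual degrees of freedom, also without replicates.

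Up to 10 genes per direction with the smallest limma p were named, among those with a change of at least 0.5 and values that did not overlap, and up to 10 with the largest difference between labels, at a mean of at least 5 CPM and opposite changes of at least 0.5. For day 14 against earlier days, 5 per direction were named. Members of the 40 gene lists were named at a p under 0.05 or as the highest by mean, together with genes the study names, and the others are said to have been chosen after their values were seen. Predicted genes were passed over, and some genes that met these rules are not reported here. The members and lists were chosen with earlier results of these data known. Of the 277 genes tabulated, 119 overlap another gene in GENCODE M21, and 93 tested symbols have values identical to those of another symbol, so their reads may be shared. Promoters come from RefSeq GRCm38.p6.

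Alternatives were a pseudocount of 0.1, other filters, no label term, the robust option, equalized medians, a fit of all 8 libraries, leaving out each library (without the label term at day 14), and, on the recovered reads, edgeR version 4.0.16 and DESeq2 version 1.42.0. An edgeR fit without the label term was added after seeing the data.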

Additional observations from a re-analysis of the deposited data

Results flagged for a closer look

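The genes below are those named for opposite changes of at least 0.5 at a mean of at least 5 CPM, and the lists are the 5 of 21 with medians of opposite sign in which both medians were at least 0.1 from 0. With 1 library per group, the difference was not tested for any of them. The difference (change under the TRPA1-KO label minus change under the WT label, on the log2(CPM + 1) scale) was 1.67 for *Vwf*, 1.60 for *Lyz2*, 1.18 for *Ctsc*, 1.16 for *Sycp3*, 1.16 for *Zfp518a*, 1.13 for *Lama4* and 1.11 for *Ccdc90b*, each lower after BCAS under the WT label and higher under the TRPA1-KO label. It was -1.27 for *Zfp469*, which was higher under the WT label and lower under the TRPA1-KO label. 

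The list medians differed by 0.58 for the pan-reactive astrocyte genes, 0.57 for the A1 genes and 0.36 for the A2 genes. The 3 tested MHC class II genes (*H2-DMa*, *Ciita* and *Cd74*) gave a difference of 0.50, and the 4 Y-linked genes *Ddx3y*, *Eif2s3y*, *Kdm5d* and *Uty* one of 0.28. *Eif2s3y* had 55.9 CPM after sham and 47.9 CPM after BCAS under the WT label, and 49.3 and 67 CPM under the TRPA1-KO label, and each of the 4 was lower after BCAS under the WT label and higher under the TRPA1-KO label. The single MHC class II genes were not all split, since *Ciita* was lower with both labels (-0.24 and -0.37) and *H2-DMa* higher with both (0.053 and 0.27), while *Cd74* changed by -0.24 and 0.62.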

How the results depend on the processing

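No pairing by replicate number was possible, because each combination of operation, label and day had 1 library. The label term already sets BCAS against sham within each label. The count of genes higher and lower at a p under 0.05 after BCAS (429 and 616) was 219 and 374 without the label term, 95 and 207 with all 8 libraries in 1 fit, 37 and 86 with DESeq2, and 251 and 337 with edgeR without the label term. The 125 genes with an adjusted p under 0.05 became 1, 0, 10 and 1 in the same order, while edgeR with the label term gave 115. In the fit of all 8 libraries, with 0 at an adjusted p, 302 genes had an unadjusted p under 0.05. With each library left out, and with it the label term, for which no residual degree of freedom was left, the counts were 153 to 492 higher, 169 to 856 lower and 10 to 91 adjusted, all lowest without the sham library labelled TRPA1-KO. The pseudocount, filters, robust option and equalized medians moved no count of this comparison by over 1.5 times, and all of the 125 genes that remained tested kept their direction in every fit that left out no library.

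Genes changed by at least 1 with a pseudocount of 0.1 were 59 higher and 146 lower under the WT label, 146 and 150 under the TRPA1-KO label, and 359 and 206 for the difference. With a filter at 5 CPM they were 0 and 13, 7 and 25, and 33 and 25. Without a filter, 13 were higher under the WT label and 123 lower for the difference. For day 14 against days 7 and 10, no filter gave 297 higher genes, and DESeq2 gave 92 higher, 127 lower and 5 adjusted. With each BCAS library left out, 100 to 415 were higher, 188 to 896 lower and 0 to 11 adjusted, with the most (415 and 896) without the BCAS library labelled TRPA1-KO on day 14. The cause was not tested.

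Against sham at day 14, directions turned in some fits without the label term and 1 library, which set groups of unequal label against each other. *C4b*, *Cx3cr1*, *Zbtb16*, *Hapln2*, *Nrgn* and *Gm14308* turned although their changes had 1 sign within both labels. Over these fits the changes ran from -0.46 to 0.97 (*Gfap*), -0.33 to 0.49 (*Vim*), -0.035 to 0.48 (*Cx3cr1*), -0.039 to 0.58 (*C1qb*), -0.18 to 1.33 (*C4b*), -0.59 to 0.0065 (*Egr3*), -0.87 to 0.0072 (*Nrgn*), -0.040 to 3.0 (*Scd3*) and -1.70 to 0.21 (*Gm14308*), each turned without the BCAS library labelled TRPA1-KO. They ran from -0.40 to 0.034 (*Hapln2*), -0.52 to 0.057 (*Ddit4*), -0.65 to 0.19 (*Sgk1*), -0.028 to 0.44 (*Zbtb16*) and -0.48 to 0.33 (*Il33*), turned without the sham library labelled TRPA1-KO, from -0.17 to 0.69 (*Vwf*, -0.14 without the BCAS library labelled TRPA1-KO), and from -0.41 to 0.055 (*Ugt8a*) and -0.32 to 0.012 (*Tspan2*), turned without the BCAS library labelled WT.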

Other observations

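Few genes of cell division passed the test. Of 16 tested cell cycle genes, 14 had a lower value after BCAS under the WT label and 12 under the TRPA1-KO label, with medians of -0.27 and -0.091, and 9 were lower without overlap, against 16.8% of all genes. *Top2a*, the topoisomerase gene of dividing cells, had 5.48 CPM after sham and 5.27 CPM after BCAS under the WT label, and 9.78 and 4.58 CPM under the TRPA1-KO label (limma adjusted p = 0.496), and *Ccnb2*, a mitotic cyclin gene, had 1.88 CPM after sham and 0.549 CPM after BCAS under the WT label, and 1.73 and 1.14 CPM under the TRPA1-KO label (limma adjusted p = 0.664). Those 2 genes passed a p of 0.05 (4.09% of all genes) and 0 kept an adjusted p under 0.05, and the count was 1 without the label term and 0 with all 8 libraries in 1 fit, with DESeq2, or without the term and the sham library labelled TRPA1-KO. *Mki67* had 6.81 CPM after sham and 5.16 CPM after BCAS under the WT label, and 9.21 and 6.76 CPM under the TRPA1-KO label and did not pass the test (limma adjusted p = 0.773).

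Of 18 glucocorticoid-responsive genes, 14 had a lower value after BCAS under the TRPA1-KO label and 7 under the WT label, a difference that was not tested. At a p under 0.05, 5 were lower and 2 were higher, where 4.09% and 2.85% of all genes were. Without the label term 1 was lower and 1 higher, and 0 passed with all 8 libraries in 1 fit or without the term and the sham library labelled TRPA1-KO. *Per1*, which is also a clock gene, had 134 CPM after sham and 123 CPM after BCAS under the WT label, and 160.1 and 107 CPM under the TRPA1-KO label (log2 fold change -0.35, SE 0.081, limma adjusted p = 0.0034). *Sgk1*, a serum- and glucocorticoid-induced kinase gene, had 184 CPM after sham and 245 CPM after BCAS under the WT label, and 330.2 and 181 CPM under the TRPA1-KO label, and *Tsc22d3*, the gene of the glucocorticoid-induced leucine zipper, had 105 CPM after sham and 106 CPM after BCAS under the WT label, and 112 and 87.4 CPM under the TRPA1-KO label. The sham library labelled TRPA1-KO held the highest *Sgk1* value of the 4, and without it and the label term the change of *Sgk1* was 0.19. Of 16 clock genes, 2 (*Per1* and *Per2*) were lower at a p under 0.05, and *Nr1d1* had 243 CPM after sham and 242 CPM after BCAS under the WT label, and 269 and 276 CPM under the TRPA1-KO label and did not pass the test. *Cryab*, a small heat shock protein gene that oligodendrocytes express, was the 1 heat shock gene with an adjusted p under 0.05 (130.4 CPM after sham and 111 CPM after BCAS under the WT label, and 148 and 109 CPM under the TRPA1-KO label, log2 fold change -0.33, SE 0.082, limma adjusted p = 0.0106).

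A cluster of zinc finger genes on chromosome 2 was lowest in the BCAS library labelled TRPA1-KO, with overlapping groups. *Zfp966* and *Zfp967*, with identical values, had 93.3 CPM after sham and 70.2 CPM after BCAS under the WT label, and 56.3 and 11.7 CPM under the TRPA1-KO label (log2 fold change -1.29, SE 0.10, limma adjusted p = 5.64e-32), and *Gm14308* had 445 CPM after sham and 381 CPM after BCAS under the WT label, and 244 and 101 CPM under the TRPA1-KO label (log2 fold change -0.75, SE 0.075, limma adjusted p = 4.14e-20). On days 7 and 10 after BCAS, *Zfp966* had 97.3 and 87.8 CPM under the WT label and 48.3 and 20.2 CPM under the TRPA1-KO label, so all libraries labelled TRPA1-KO lay under all labelled WT. These genes were named after their values were seen, and reads of near-identical copies cannot be assigned with certainty.

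Genes of the ependymal cells that line the ventricles had a lower value after BCAS for 9 of 9 under the WT label and for 7 of 9 under the TRPA1-KO label, and *Cfap126* alone passed a p of 0.05 (change -0.65, limma adjusted p = 0.60). Of 11 tested genes of hippocampal and septal neurons, 3 were lower and 1 was higher at a p under 0.05, where 4.09% and 2.85% of all genes were. Without overlap, 4 were higher and 1 was lower, against 14.5% and 16.8% of all genes. *Chat* and *Slc18a3*, markers of cholinergic neurons, were among the 3 lower ones, with changes of -0.48 and -0.61 (limma adjusted p = 0.667 and 0.64). *Slc18a3* lies within *Chat* on the same strand, so the 2 may share reads. With DESeq2, 0 of the 11 passed a p of 0.05. Cholesterol synthesis genes (0 of 22 at a p under 0.05) and respiratory chain genes (1 of 30, *Cox5a*, change -0.18) had list medians of -0.0048 and -0.014.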
